A study of Caenorhabditis elegans with 2 samples.

Results

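The genes described here are *din-1*, *daf-12*, *daf-9* and *daf-36*, 4 of the 19985 protein-coding genes of *Caenorhabditis elegans*, and the subject is where the protein MADF-2 was mapped along them in late embryos. The genes were chosen by hand around *din-1*, which was itself selected on the signal value of its upstream region in these same lists, so every value below is a description and none is tested. MADF-2 carries a MADF domain, a DNA-binding fold related to Myb domains. Its places on chromatin came from ChIP-seq, the sequencing of immunoprecipitated chromatin, in 2 biological replicates of 1 group. The worms were of strain OP587, genotype unc-119(tm4063) III with the integrated transgene wgIs587, which stably expresses MADF-2 with GFP and FLAG fused to its C-terminus. Embryos of mixed sex were synchronised by egg bleaching and taken 3 hours later, chromatin was sonicated, and an anti-GFP antibody was used. No source used here names the promoter that drives the transgene, whole embryos mix all cell types, and control libraries were not analysed here.

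DAF-12 is a nuclear receptor whose ligands, the dafachronic acids, are steroid hormones made from cholesterol. DAF-36, a Rieske-type oxygenase, acts early in their synthesis, and DAF-9, a cytochrome P450, completes it. With ligand DAF-12 promotes reproductive growth, and without ligand it acts with its corepressor DIN-1, a relative of mammalian SHARP (SPEN), in entry into the dauer larva, a stress-resistant resting stage. The *din-1* gene makes long and short proteins from separate starts, and the short form is the one known to act with DAF-12.

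The authors deposited lists of genomic regions, each with a summit (the point of highest coverage) and a signal value of unstated scale. The pooled list, made from both replicates, held 30000 regions that include background. Its signal values ran from 17.5 to 1036, with a median of 25.0. The optimal list, kept by the authors' reproducibility filter (IDR), was the 772 strongest pooled regions, with signal values of 69.6 and above. The replicate 1 list held 30000 regions (median 16.2, highest 571) and the replicate 2 list 27350 (median 14.6, highest 832). Ranks below run from 1, the strongest of a list, and values of different lists share no stated scale. A region was assigned to a gene if it overlapped the span from 3 kb upstream of its 5′ end to its 3′ end. Many annotated worm 5′ ends are trans-splice sites, so distances to them are approximate. Pooled regions that are not optimal include background and are given as listed, not as bound. The tagged gene itself, *madf-2*, had no region in any of the 4 lists.

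The sequences that carry the main result are the summits of the 4 optimal regions upstream of *din-1*, shown beside the strongest summit inside *din-1* and the strongest at *daf-12* for contrast. Each is 151 bases of the RefSeq genome of build WBcel235 (ce11), centred on the pooled summit and written on the plus strand. *din-1* lies on the minus strand and *daf-12* on the plus strand. Capitals mark matches to AGTGCA, a hexamer known as a DAF-12 binding element, or to GAGAG, the core of the GAGA repeats found at many worm promoters, each searched on both strands (as TGCACT or CTCTC on the printed strand) with overlapping matches counted.
*din-1* strongest upstream summit, chrII:11634223-11634373: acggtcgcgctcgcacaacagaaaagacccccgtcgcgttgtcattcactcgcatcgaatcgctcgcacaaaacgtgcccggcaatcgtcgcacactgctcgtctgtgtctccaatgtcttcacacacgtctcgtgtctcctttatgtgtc
*din-1* upstream summit of signal value 296, chrII:11635148-11635298: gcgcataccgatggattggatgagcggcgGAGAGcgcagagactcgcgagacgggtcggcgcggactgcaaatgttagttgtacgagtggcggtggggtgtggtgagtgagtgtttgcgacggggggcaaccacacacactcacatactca
*din-1* upstream summit of signal value 189, chrII:11634426-11634576: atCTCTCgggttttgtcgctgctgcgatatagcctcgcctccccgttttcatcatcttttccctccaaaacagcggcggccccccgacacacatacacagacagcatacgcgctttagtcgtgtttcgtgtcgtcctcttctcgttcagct
*din-1* upstream summit of signal value 159, chrII:11635877-11636027: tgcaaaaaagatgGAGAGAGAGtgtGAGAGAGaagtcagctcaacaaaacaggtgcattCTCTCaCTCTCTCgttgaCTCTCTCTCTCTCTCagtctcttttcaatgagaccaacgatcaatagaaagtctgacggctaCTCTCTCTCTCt
*din-1* strongest internal summit, chrII:11620177-11620327: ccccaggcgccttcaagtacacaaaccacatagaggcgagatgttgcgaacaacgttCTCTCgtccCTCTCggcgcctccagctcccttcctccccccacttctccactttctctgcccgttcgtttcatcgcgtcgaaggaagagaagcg
*daf-12* strongest summit, chrX:10637578-10637728: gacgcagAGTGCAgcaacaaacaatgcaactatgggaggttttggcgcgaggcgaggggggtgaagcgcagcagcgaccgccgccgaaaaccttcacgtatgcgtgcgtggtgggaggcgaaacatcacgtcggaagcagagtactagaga

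The 3 *din-1* upstream windows of highest signal value were rich in G and C and in the dinucleotide CpG, and the fourth held several short stretches of GAGA repeats. The window of the strongest summit had a GC content of 55.6% and 18 CpG, that of signal value 296 had 60.3% and 15, and that of signal value 189 had 54.3% and 14. Over all 772 optimal windows the median GC content was 49.0% (quartiles 45.0 and 53.0%) and the median number of CpG was 10 (quartiles 8 and 12). All 3 windows were thus above the upper quartile of the optimal list on both measures. So were both windows shown for contrast, whose signal values are far lower. The internal *din-1* window had 58.3% and 13 CpG, and the *daf-12* window 58.9% and 15. These measures therefore do not set the strong upstream windows apart from them. The window of signal value 159 had 44.4% and only 3 CpG, but held 5 GAGAG and 13 CTCTC, which together take up 54 of its 151 bases. GAGAG in either orientation was present in 53.0% of optimal and 30.2% of all pooled windows of this length. The strongest *din-1* window held neither word, while those of signal value 296 and 189 held 1 match to GAGAG or CTCTC each. AGTGCA was in none of the 5 *din-1* windows. It occurred 1 time in the *daf-12* window, and in 6.22% of optimal and 6.02% of all pooled windows. A match is a description of the letters, not a site.

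Of the 4 genes only *din-1* had regions of the optimal list. The pooled list placed 36 of its 30000 regions at these genes, 22 at *din-1* and 14 at *daf-12*, and none at *daf-9* or *daf-36*. The optimal list placed 4 of its 772 regions there, all upstream of *din-1*. Over all protein-coding genes, 5.92% had an optimal region in the span, 1184 of 19985 (95% Wilson interval 5.61 to 6.26%, which covers counting error only). Among the genes with any pooled region the share was 8.42%, and 70.4% of protein-coding genes had a pooled region. The presence of pooled regions at *din-1* and *daf-12* is thus what most genes show, and nothing is read from the 1 gene of 4 with an optimal region, since it was chosen for that. The replicate 1 list placed 33 regions at these genes (20 at *din-1*, 13 at *daf-12*) and the replicate 2 list 26 (16, 9 and 1 at *daf-9*). By the strongest signal value, *din-1* stood above *daf-12* and *daf-12* above the 2 enzyme genes in the pooled list and in both replicate lists. *din-1* was chosen on these values, so nothing is read from its first place. In replicate 2 *daf-12* had 24.5 and *daf-9* 18.4, both far below the strongest of that list.

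**Figure D1:**
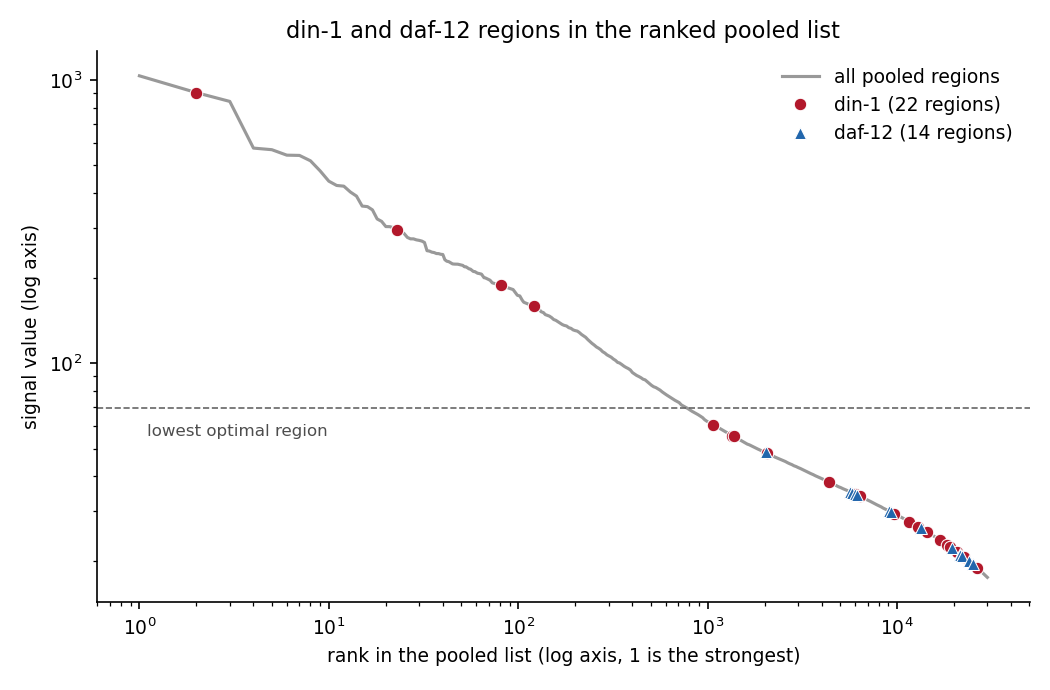
Signal value (log axis) against rank in the pooled list (log axis) for all pooled regions (grey line), the 22 at *din-1* (circles) and the 14 at *daf-12* (triangles), with a dashed line at 69.6, the lowest value of the optimal list. The 4 optimal *din-1* regions stand at ranks 2, 23, 81 and 121, and all others of both genes lie below the line, from 60.6 downwards.

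The corepressor gene *din-1* (WBGene00008549) occupies 11614770 to 11633609 of chromosome II on the minus strand. Its 4 optimal summits lay upstream in a compact cluster of 3 covered stretches between 11634051 and 11636149, with 1654 bp from the nearest summit to the farthest. The strongest summit, at 11634298, had a signal value of 904 in the pooled list (rank 2), 556 in replicate 1 (rank 2) and 356 in replicate 2 (rank 9). Replicate 2 alone lists mitochondrial regions, 14 in all, and 6 of the 8 regions above *din-1* there are mitochondrial. Among nuclear regions it was at rank 3 in that replicate.

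The next summit of the cluster, at 11635223 and 1614 bp upstream of the 5′ end, had a signal value of 296 in the pooled list (rank 23), 185 in replicate 1 (rank 18) and 116 in replicate 2 (rank 51). The summit at 11634501, in the same region as the strongest and 892 bp upstream, had 189 (rank 81), 97.0 (rank 97) and 54.4 (rank 298). The farthest, at 11635952 and 2343 bp upstream, had 159 (rank 121), 94.0 (rank 104) and 64.2 (rank 197). The strongest and the next kept their order in all 3 lists, while the last pair stood the other way round in replicate 2. Within each list the strongest summit had 3.05 (pooled), 3.00 (replicate 1) and 3.08 times (replicate 2) the signal value of the next. The summits called in the replicates lay 0 to 17 bp from the pooled ones. At the edge of the optimal list, the weakest *din-1* region inside it had 159 and the strongest outside it 60.6 (rank 1069). That region, with its summit at 11636153 and 2544 bp upstream, had 31.5 in replicate 1 and 22.3 in replicate 2.

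**Figure D2:**
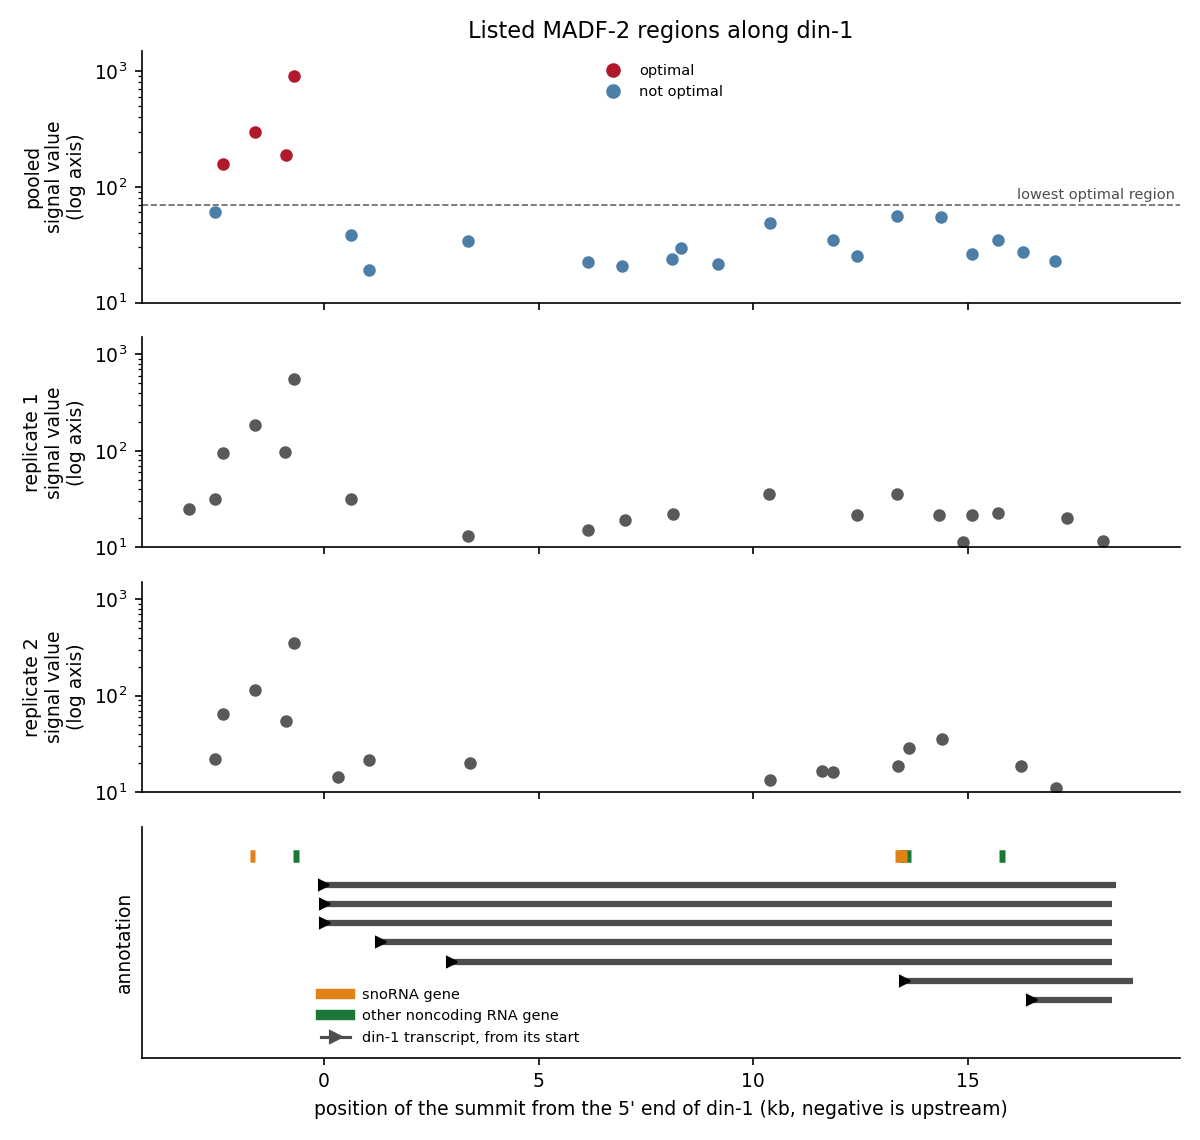
Signal value (log axis) of every listed region along *din-1* in the pooled, replicate 1 and replicate 2 lists, by the position of its summit from the 5′ end in kb (negative is upstream), above the 7 annotated transcripts and the noncoding RNA genes. Each list has its 4 highest points upstream, and the points inside the gene stay at or below 55.6 in the pooled list, 35.9 in replicate 1 and 35.3 in replicate 2.

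No other protein-coding gene shares the strongest region. The next one upstream, *ghi-1*, lies on the opposite strand beyond a gap of 13137 bp, which held 8 pooled regions. The 3 of these beyond the 3 kb span had signal values of at most 50.7, so the strong signal of this gap lies on the *din-1* side. Over all protein-coding genes, 56 had at least 2 optimal regions, 5 had at least 3, and 3 had at least 4. The last were *din-1*, *hmg-1.1* and *Y54G11A.2*, and the latter pair share regions. These counts take each listed summit as a region. With overlapping regions merged, *din-1* had 3. Merged counts of the other genes are not given here, so this value cannot be set against the counts above. A strongest pooled region as high as that of *din-1* was found at 2 other genes of 19985, which share it (*grk-1* and *F19C6.2*).

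Small noncoding RNA genes lie within this upstream cluster. The strongest summit was inside *ZK20.8*, an annotated noncoding RNA of the same strand as *din-1* at 11634196 to 11634334. The summit of signal value 296 was 2 bp outside *ZK20.9*, a snoRNA gene of the opposite strand at 11635225 to 11635327. snoRNAs guide the modification of ribosomal RNA. Of the 4 optimal summits 3 lay within 300 bp of a noncoding gene, as did 330 of all 772 optimal summits (42.7%) and 11.3% of all pooled summits. For snoRNA genes alone these shares were 7.90% and 0.613%. The part of the noncoding genes in the *din-1* signal was not tested.

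Inside *din-1* the listed regions were weak and spread along the whole gene. The pooled list held 17 there, 10 in introns, 6 in coding exons and 1 in an untranslated region, with signal values from 19.0 to 55.6 and a median of 27.6, just above the median of the whole list. None was optimal, and within each list the strongest upstream region had 16.3 (pooled), 15.5 (replicate 1) and 10.1 times (replicate 2) the signal value of the strongest internal one. At 1.01 pooled regions per kb the span was denser than the genome mean of 0.299 per kb. As many pooled regions as the 22 of *din-1* were found at 24 other protein-coding genes, and as high a density at 510 others (2.56% of all with *din-1*).

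The annotation gives *din-1* 7 transcripts with 6 distinct starts. The long proteins, of 2014 to 2407 residues, start within 2972 bp of the 5′ end. The 2 short ones start deep inside the gene, *F07A11.6d* (567 residues) at 13531 bp and *F07A11.6g* (186 residues) at 16490 bp. Each of the 4 starts that lie more than 23 bp inside the gene had 1 pooled summit within 500 bp that was nearest to it. None of these was optimal. With 1.01 pooled regions per kb of the span, a summit within 500 bp is common anywhere in the gene, so nothing is read from this. The strongest internal summit of the pooled list, at 11620252, lay 174 bp upstream of the *F07A11.6d* start, in an intron and inside the snoRNA gene *F07A11.15* (11620025 to 11620295). It had a signal value of 55.6 in the pooled list (rank 1344), 35.5 in replicate 1 (rank 1183) and 18.6 in replicate 2 (rank 6410). Replicate 2 listed a further summit 93 bp downstream of the same start, with a signal value of 28.8 (rank 1401).

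Summits near the other internal starts were lower still in the pooled list. The one 385 bp downstream of the *F07A11.6f* start had 33.9 (rank 6383), the one 214 bp upstream of the *F07A11.6g* start 27.6 (rank 11635), and the one 280 bp upstream of the *F07A11.6e* start 19.0 (rank 26447). The last of these lies below the list's median of 25.0 and the others above it. Of the internal regions far from a start, the summit at 11619223, which is 855 bp downstream of the *F07A11.6d* start, had 55.2 in the pooled list, 21.7 in replicate 1 and 35.3 in replicate 2, where it was the strongest internal one (rank 819). In replicate 1 the strongest internal summit was at 11623233 in a coding exon, with 35.9 (rank 1152), and the matching summit had 48.3 in the pooled list and 13.3 in replicate 2. The 2 replicates thus ranked the internal regions differently, unlike the 2 strongest upstream summits.

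The receptor gene *daf-12* (WBGene00000908) occupies 10635908 to 10666875 of chromosome X on the plus strand. It had 14 pooled regions and no optimal one, and none of the 14 lay upstream of its 5′ end. The signal values ran from 19.5 to 48.4 with a median of 28.0, close to those inside *din-1*. Its pooled density, 0.412 regions per kb, was near the genome mean, and 33.7% of protein-coding genes were at least as dense. A strongest region at least as high as that of *daf-12* was found at 2580 other protein-coding genes.

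The strongest *daf-12* summit, at 10637653 in an intron 1745 bp downstream of the 5′ end, rested on 1 replicate. Its signal value was 48.4 in the pooled list (rank 2027) and 46.4 in replicate 1 (rank 541, thus among the 772 strongest of that list), and replicate 2 listed no region that overlaps it. The strongest *daf-12* summit of replicate 2 was elsewhere, at 10642540, with 24.5 (rank 2450). The pooled region that overlaps it had 34.3 (rank 6132).

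*daf-12* has 10 annotated transcripts with 9 distinct starts, which give proteins of 267 to 753 residues. A pooled summit lay 35 bp upstream of the start of *F11A1.3c*, the shortest form, with a signal value of 34.9 (rank 5775). The nearest overlapping replicate summits lay 106 bp from it in replicate 1 (13.5) and 129 bp in replicate 2 (11.1). Replicate 1 also listed a stronger one 151 bp upstream of that start, with 25.0. Another pooled summit was 26 bp downstream of the *F11A1.3e.2* start with 29.8 (rank 9353), and replicate 2 listed no region overlapping it. A further one lay 20 bp downstream of the *F11A1.3e.4* start with 20.0 (rank 23950), and replicate 1 listed none overlapping it. In all, 4 of the 14 summits were within 500 bp of their nearest start. With 9 starts and 0.412 pooled regions per kb of the span, some summits fall this close anyway, and nothing is read from the count. Of the 14 pooled regions 12 were overlapped by a region of replicate 1, 5 by one of replicate 2 and 4 (28.6%) by both. For *din-1* the counts were 18, 14 and 11 of 22 (50%), and over the whole pooled list 41.8% were overlapped by both. The 4 optimal *din-1* regions are among its 11. A replicate region that overlaps more than 1 pooled region counts for each of them. This is so for the pooled *daf-12* summits at 10664371 and 10664570, which were matched to the same region in each replicate.

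**Figure D3:**
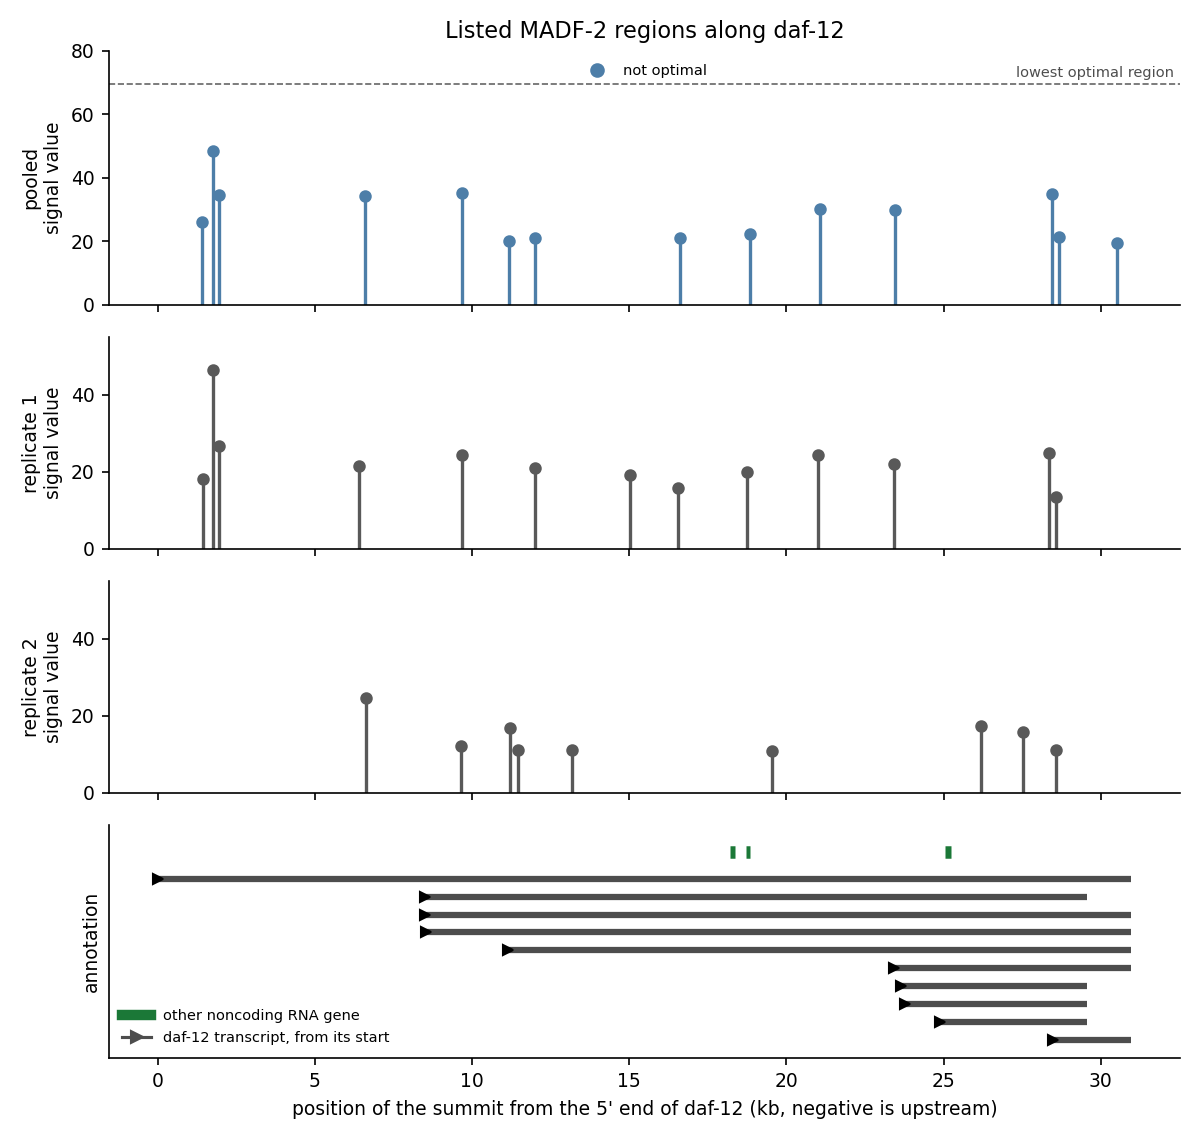
Signal value of every listed region along *daf-12* in the pooled, replicate 1 and replicate 2 lists, by the position of its summit from the 5′ end in kb, above the 10 annotated transcripts and the noncoding RNA genes. All pooled points are at or below 48.4, under the dashed line at 69.6 (the lowest optimal value), and the highest point of replicate 1, 1744 bp inside the gene, has none beside it in replicate 2.

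The enzyme genes *daf-9* and *daf-36* were almost free of listed regions. *daf-9* (WBGene00000905, chromosome X, 6196927 to 6200823, plus strand) had no region in the pooled, optimal or replicate 1 lists. Replicate 2 listed 1, with its summit 2539 bp upstream at 6194388 and a signal value of 18.4 (rank 6701). That region also overlaps the neighbouring gene *ceh-54* on the opposite strand, and its summit lies 147 bp upstream of the 5′ end of *ceh-54*, closer than to *daf-9*. *daf-36* (WBGene00007536, chromosome V, 10223513 to 10225710, minus strand) had none in any list. Their spans are short, 6.90 and 5.20 kb, and at the genome mean density would hold 2.06 and 1.56 pooled regions. Of all protein-coding genes, 29.6% had no pooled region. An empty span says that no region was listed there, and at a depth that is not given it does not show that MADF-2 was absent.

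The wider DAF-12 pathway was described with a list of 50 genes in 5 roles, 46 of them protein-coding, which was written with earlier results of these data known. A pooled region was present at 44 of the 50 and an optimal one at 6 (12%). The 6 include *din-1*, which was selected on its region. Among the 42 protein-coding genes other than the 4 above, 5 (11.9%) had an optimal region, beside 5.92% of all protein-coding genes, but their spans are longer, with a median of 8.64 kb against 5.03 kb. The median of the strongest pooled signal value was 39.9 over those of the 42 that had a region, and 31.3 over all protein-coding genes that had one. Each role holds few genes, and nothing is read from counts of 0 to 2 in a role.

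**Figure D4:**
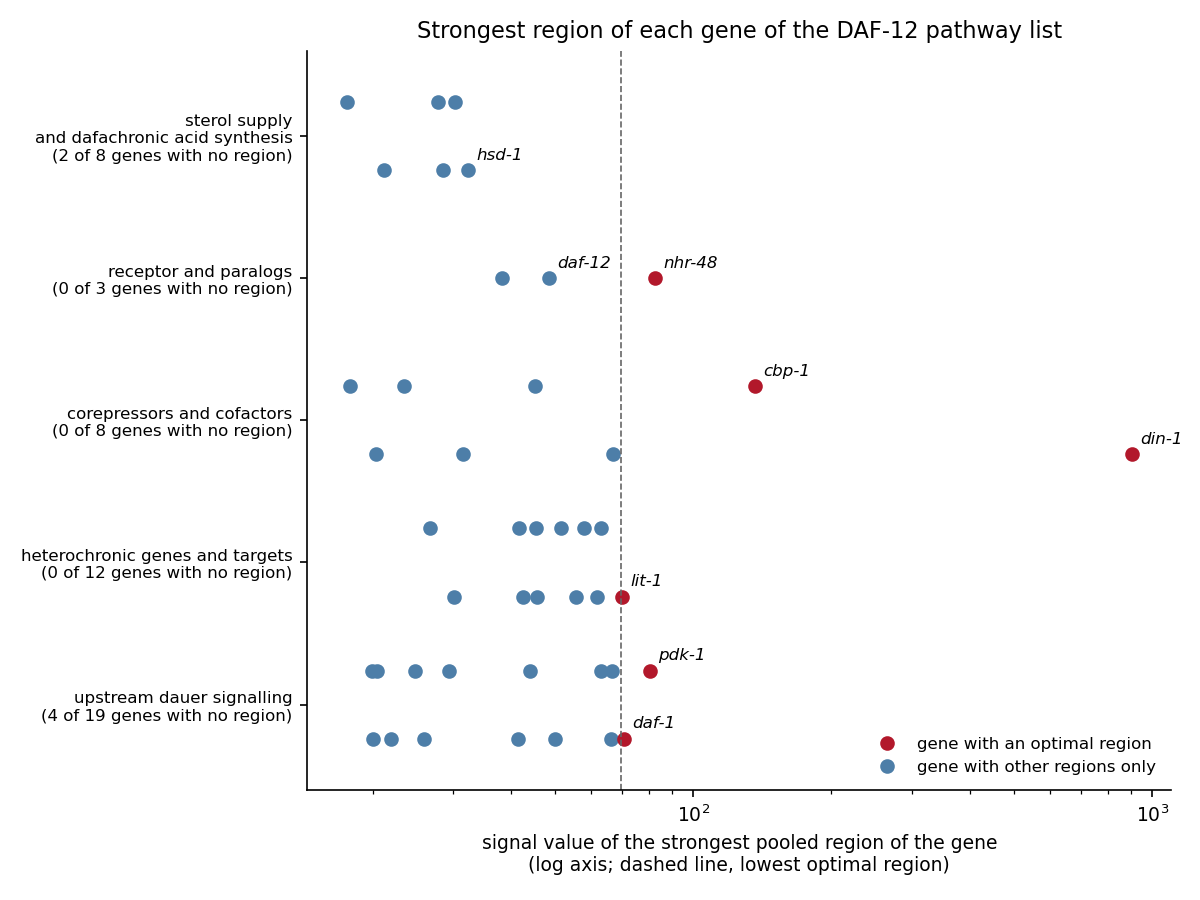
Signal value (log axis) of the strongest pooled region of each gene of the list, in 5 rows by role, with red points for genes that have an optimal region and a dashed line at 69.6, the lowest optimal value. *din-1* stands apart at 904, *cbp-1* follows at 136, and the other 4 red points lie between 70.1 and 82.7.

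Of the 8 sterol and synthesis genes none had an optimal region, beside the 5.92% of all protein-coding genes. The 6 with a pooled region had a median strongest signal value of 28.1, and their role has the shortest spans of the list's 5 roles (median 7.08 kb). The strongest was *hsd-1*, a hydroxysteroid dehydrogenase gene, with 32.3 in the pooled list (rank 7375), 16.5 in replicate 1 and 16.8 in replicate 2. Of the receptor genes, 1 of 3 had an optimal region. This was *nhr-48*, a paralog of *daf-12*, with a summit 643 bp upstream of its 5′ end (chromosome X, 15707372 to 15707767). Its signal value was 82.7 (rank 519), with 54.7 in replicate 1 (rank 360) and 31.5 in replicate 2 (rank 1080). The other paralog, *nhr-8*, had 38.2 in the pooled list, in a region within the spans of 4 other protein-coding genes.

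Of the 8 corepressor and cofactor genes, *cbp-1*, which encodes the worm CBP/p300 acetyltransferase, had an optimal region besides *din-1*. Its summit lay 908 bp upstream (chromosome III, 9765527 to 9765649), with a signal value of 136 in the pooled list (rank 176), 72.0 in replicate 1 (rank 196) and 62.1 in replicate 2 (rank 217). With *din-1* it is the only gene of the 50 still present among the stronger 386 optimal regions, and both were also among the 772 strongest regions of each replicate. *hda-1*, a histone deacetylase gene, had 66.8 (rank 857), just under the lowest optimal value of 69.6. That region also falls in the spans of *ril-1*, *C53A5.2* and *C53A5.16*, and its summit lies inside the noncoding RNA gene *C53A5.18*. The other cofactor genes, which include the nuclear receptor corepressor homologue *gei-8*, had between 17.9 and 45.2.

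Of the 12 heterochronic genes, which time larval development, and DAF-12 targets, only *lit-1*, a Nemo-like kinase gene, had an optimal region. Its summit was 15736 bp inside the gene with a signal value of 70.1 (rank 758), just over the lowest optimal value. The values were 48.7 in replicate 1 and 28.2 in replicate 2. Below the lowest optimal value, *hbl-1* had 63.0 (rank 976), with 27.0 in replicate 1 and 28.3 in replicate 2. The let-7 family microRNA genes, which DAF-12 is known to regulate, had no optimal region in any of 4 spans. Over all 261 annotated microRNA genes the share with one was 7.66%, and nothing is read from a count of 0 of 4. The strongest of each was 61.7 at *mir-241*, 55.4 at *let-7*, 45.7 at *mir-84* and 30.1 at *mir-48*. The summit counted for *mir-48* lay 1794 bp upstream of it but only 20 bp from *mir-241*. Replicate 1 listed no region overlapping the one at *let-7*, while in replicate 2 it had 45.8 (rank 433).

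Of the 19 genes of upstream dauer signalling 2 had an optimal region, beside 5.92% of all protein-coding genes and with longer spans (median 8.67 kb). *pdk-1*, a kinase gene of the insulin pathway, had 2, a summit 1425 bp upstream (chromosome X, 1319721 to 1320116) with 80.5 in the pooled list (rank 559), 38.4 in replicate 1 and 50.2 in replicate 2, and one 1888 bp inside with 70.9. *daf-1*, which encodes a TGF-beta type I receptor, had a summit 104 bp upstream (chromosome IV, 132114 to 132509) with 70.6 in the pooled list (rank 746), 38.1 in replicate 1 and 34.7 in replicate 2. Just under the lowest optimal value was *daf-14*, a SMAD gene, with 66.5 (rank 869). *daf-5*, a relative of the SKI proto-oncogene, had 66.3 (rank 874), with 52.2 in replicate 1 and 15.4 (rank 11764) in replicate 2. The SMAD gene *daf-3* had 63.0 (rank 975), in a region that also falls in the span of *wdr-54*. Replicate 2 listed no region overlapping it. Other genes of this role were much lower, among them *daf-8* with 19.9, *daf-7* with 22.0 and *daf-4* with 29.4. The insulin receptor gene *daf-2* had 41.6 and the FOXO gene *daf-16* 49.9.

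Over the strongest region of a gene in the pooled and both replicate lists, the 5 genes most like *din-1* were *hmg-1.1* and *Y54G11A.2*, which share 1 region, *grk-1* and *F19C6.2*, which share another, and *K12H4.3*. Likeness was the sum over the 3 lists of the absolute log2 differences in signal value, among 11307 protein-coding genes with a region in each. The sum was 0.63 for the region of *hmg-1.1* (842, 438 and 404 in the pooled, replicate 1 and replicate 2 lists), 0.67 for that of *grk-1* (1036, 571 and 481) and 1.93 for that of *K12H4.3* (576, 303 and 268). *K12H4.3* shares its region with *K12H4.5*, *K12H4.6* and *spcs-3*, which are equally near.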

How the data were processed

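ChIP-seq region lists on build ce11 were used for 2 replicates of 1 group. Per the deposited file records, the authors called the replicate and pooled lists on alignments of the libraries and of a control, and derived the optimal list from these by the IDR filter. For peak caller, aligner, settings and depth nothing is given in the sources used here, so the precision behind each value is unknown. Each region has a deposited signal value, which ranked and described regions within a list, and a deposited −log10 q-value, which was not used because 536 optimal regions were tied at its maximum of 3.03. Deposited regions also carry a summit offset.

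Regions were assigned to genes of Ensembl release 115 (WBcel235) by an overlap of at least 1 bp with the span from 3 kb upstream to the 3′ end. MicroRNA genes were named from RefSeq. Python 3.11.15, pandas 2.3.3, numpy 2.4.6, scipy 1.17.1 and matplotlib 3.10.9 were used. The assignment was tested on simulated data.

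The 4 genes, the pathway list and the search words were chosen with earlier results of these data known, so no test was run. Of the pathway list, genes with an optimal region and the strongest gene of each role were named. Others were chosen after their values were seen (*nhr-8*, *hda-1*, *gei-8*, *hbl-1*, *lin-14*, *daf-3*, *daf-4*, *daf-5*, *daf-7*, *daf-8*, *daf-14*, *daf-2*, *daf-16* and the microRNAs). Alternatives varied the upstream reach, the overlap rule, the threshold, merging, the replicate and the annotation.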

Additional observations from a re-analysis of the deposited data

How the results depend on the processing

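No paired analysis was possible because there is 1 group. Of 34 alternative values 30 stayed within 1.5 times the reported count, or close to the reported rank or distance, and 4 moved. With 1 kb upstream in place of 3 kb, 2 optimal regions remained in the spans of the 4 genes, since the summits of signal value 296 and 159 lie farther out. With the stronger 386 optimal regions as the threshold, 2 genes of the pathway list (*din-1* and *cbp-1*) and 601 protein-coding genes had such a region, in place of 6 and 1184, because the list is shorter by construction. With either replicate alone, the rank of the strongest *din-1* region ran from 2 to 9, and it was 3 in replicate 2 with mitochondrial regions left out, an alternative added after the data were seen. The number of optimal regions at the 4 genes was 4 or 5 when the top 772 regions of a replicate list took the place of the optimal list. The fifth was the *daf-12* intron summit in replicate 1. The number of pathway genes ran from 4 to 8, but the genes changed. Only *din-1* and *cbp-1* were present with both replicates. Replicate 1 added *nhr-48*, *lit-1*, *daf-3*, *daf-5*, *daf-12* and *lin-14*, and replicate 2 added *pdk-1* and *let-7*. *daf-1* was present with neither. Ranking by the deposited p-value column was not run, since that column holds −1 throughout. Depth is not given, so it cannot be said which weak regions more reads would have raised or removed.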
